A study of Caenorhabditis elegans with 2 samples.

Results

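The proteasome subunit genes of Caenorhabditis elegans were taken as the annotated protein-coding genes whose symbol is pas-, pbs-, rpt- or rpn- followed by a number. The rule found 33 of 19985 protein-coding genes and used no measured value. There were 14 core particle genes, with 7 alpha ring genes (pas-1 to pas-7) and 7 beta ring genes (pbs-1 to pbs-7). The 19 regulatory particle genes were 10 base genes (rpt-1 to rpt-6, rpn-1, rpn-2, rpn-10 and rpn-13) and 9 lid genes (rpn-3, rpn-5, rpn-6.1, rpn-6.2, rpn-7, rpn-8, rpn-9, rpn-11 and rpn-12).

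The binding of MEP-1 was measured by chromatin immunoprecipitation and sequencing in mixed-stage embryos, collected whole and with both sexes pooled, of strain OP70. Its genotype is unc-119(ed3) III; wgIs70, where wgIs70 is a mep-1 transgene and the protein carries an eGFP tag. The only group has 2 biological replicates, with a library size range of 150 to 350 bp, and both carry the same alleles. The sources used here do not give the promoter that drives the transgene, and a tagged copy may not report on every cell that holds MEP-1. Because whole embryos were used, weak binding in many cells and strong binding in few cells cannot be told apart. No second condition, untagged strain or expression value was analysed here, so no p-value is given, and the labelled stage could not be checked against markers.

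The proteasome is the protease that degrades proteins tagged with ubiquitin. Its core particle is a barrel in which outer alpha rings gate the entrance and inner beta rings hold the catalytic sites. The regulatory particle caps it, with a base of ATPases and ubiquitin receptors that unfolds substrates and a lid that removes ubiquitin. In worms, proteasome subunit genes are known targets of the transcription factor SKN-1A, which raises their expression when the proteasome is impaired. MEP-1, which has zinc fingers, acts with the chromatin remodeller LET-418.

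The measure was the authors' deposited signal value, a strength that the peak caller gave each region, on the scale of its own list. The promoter of a gene was taken as the stretch that starts 1000 bp before its annotated 5′ end and ends 200 bp after it, and a gene was given a peak when the summit lay there. The IDR set is the authors' optimal IDR thresholded list, from a step meant to keep regions that rank alike in the replicates. It holds 2404 peaks with signal from 34.2 to 357.3. The candidate lists, which contain background, number 25216 regions in replicate 1 and 30000 in replicate 2, and the list from pooled reads also has 30000. Their signal ran from 2.00 to 90.3 in replicate 1, from 5.42 to 320.3 in replicate 2 and from 6.55 to 357.3 in the pooled list, so ranks, with 1 the strongest, are used to set lists side by side. The IDR set was identical to the 2404 strongest pooled regions. Of its peaks, 84.5% had a replicate 1 summit within 100 bp and 98.5% a replicate 2 summit. A place in the set thus does not by itself show that a peak ranked alike in both replicates. Read depth is unknown.

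An IDR peak lay in the promoter of 23 of the 33 subunit genes (69.7%), against 11.4% of all protein-coding genes. Each of the 23 genes had exactly 1 such peak, and the 23 peaks were all different. With background regions included, 31 of 33 promoters held a pooled candidate (93.9%), against 39.1% of all genes. The best promoter region of the 31 had a median pooled rank of 1480, against 6919 for all genes with a candidate. In the replicates taken alone, 17 subunit genes had a region among the 2404 strongest of replicate 1, against 9.43% of all genes, and 22 had one among the 2404 strongest of replicate 2, against 11% of all genes. Both lists held 15 of them, against 6.87% of all genes.

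The strength of the peaks differed little from that of other genes with a peak. The median IDR signal was 55.5, with quartiles of 43.3 and 84.0, against a median of 57.7 with quartiles of 43.7 and 81.2 for all 2275 genes with an IDR promoter peak. Of the 23 genes, 11 lay above that all-gene median. The 1202 strongest IDR peaks served 14 of the 23 subunit genes, against 1319 of all 2275 genes with a peak (6.6% of all protein-coding genes). The 100 strongest served 1 subunit gene, rpn-3, against 138 of all 2275 genes with a peak.

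**Figure D1:**
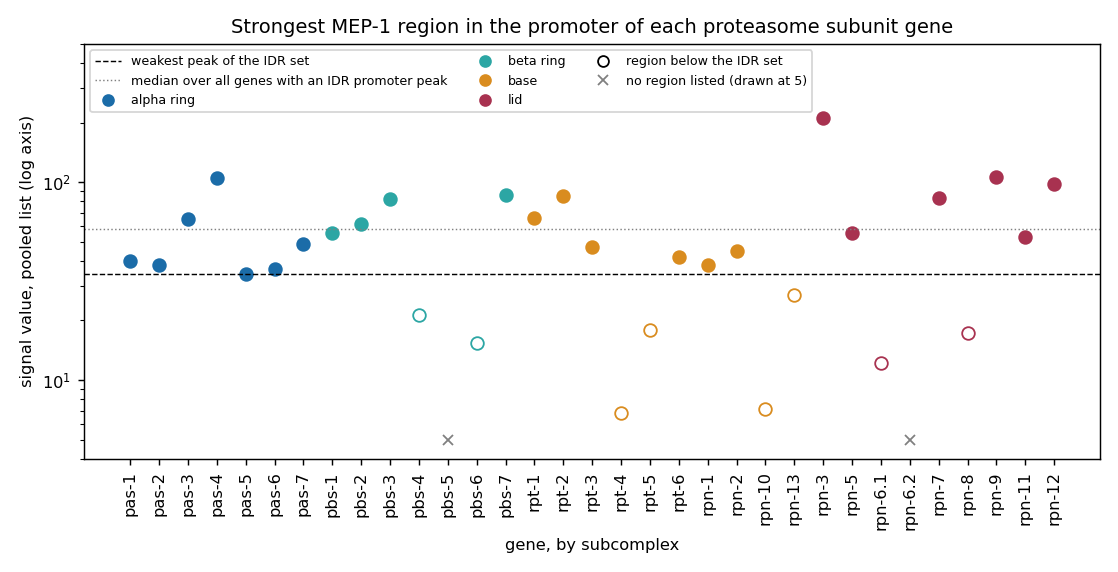
Signal of the strongest promoter region in the pooled list (log axis) for each subunit gene, by class. Filled points are IDR promoter peaks, open points are pooled candidates below the IDR set, and genes with no pooled region in the promoter are marked as such. All 7 alpha ring genes are filled, and rpn-3, at 210.5, stands above the rest.

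Sequence around the summits is shown for 9 genes, as examples of the DNA that the motif counts rest on, with and without the SKN-1 core letters. They are not the strongest of each class: the peaks of pas-2, pas-3, pas-4, pas-7, pbs-2, pbs-3, pbs-7, rpt-2 and rpt-3, each stronger than a peak shown for its class, are not shown. Each run spans the summit and 50 bp on each side, except that of rpn-7, which was cut to 70 bp at neighbouring annotated exons. The runs are read 5′ to 3′ on the strand of the subunit gene, from the RefSeq genome of build WBcel235, which is ce11. Capitals mark any of the motifs searched, on either strand. The positions are pas-1 at chrV:14423375-14423475 on the minus strand, pas-6 at chrV:5584513-5584613 on the minus strand, pbs-1 at chrIV:1709892-1709992 on the minus strand, rpt-1 at chrV:11982457-11982557 on the minus strand, rpn-2 at chrIII:6198774-6198874 on the plus strand, rpn-3 at chrIII:8447125-8447225 on the plus strand, rpn-9 at chrII:11239128-11239228 on the minus strand, rpn-12 at chrII:11652931-11653031 on the plus strand and rpn-7 at chrIV:9316216-9316285 on the plus strand.
pas-1: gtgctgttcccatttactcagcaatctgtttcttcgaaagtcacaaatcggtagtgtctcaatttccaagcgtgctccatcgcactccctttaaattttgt
pas-6: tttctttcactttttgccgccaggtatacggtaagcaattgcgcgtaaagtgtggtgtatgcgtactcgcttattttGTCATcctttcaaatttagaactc
pbs-1: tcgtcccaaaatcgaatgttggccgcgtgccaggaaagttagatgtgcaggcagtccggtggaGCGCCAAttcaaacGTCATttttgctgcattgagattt
rpt-1: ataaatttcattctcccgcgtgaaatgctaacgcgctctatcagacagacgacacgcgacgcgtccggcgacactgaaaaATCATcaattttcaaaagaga
rpn-2: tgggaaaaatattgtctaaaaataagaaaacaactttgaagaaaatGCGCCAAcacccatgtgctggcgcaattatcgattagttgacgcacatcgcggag
rpn-3: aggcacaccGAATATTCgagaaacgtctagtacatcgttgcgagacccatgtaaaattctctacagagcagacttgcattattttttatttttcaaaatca
rpn-9: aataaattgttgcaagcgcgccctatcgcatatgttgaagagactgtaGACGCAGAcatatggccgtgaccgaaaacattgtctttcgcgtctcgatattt
rpn-12: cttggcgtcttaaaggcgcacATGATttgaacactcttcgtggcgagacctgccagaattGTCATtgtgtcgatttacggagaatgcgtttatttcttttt
rpn-7: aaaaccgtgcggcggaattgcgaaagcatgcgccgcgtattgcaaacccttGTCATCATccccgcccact

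Within 50 bp of the summit, 15 of the 23 windows (65.2%) held GTCAT or ATCAT, the core letters of SKN-1 binding sites, on either strand. Over all genes with an IDR promoter peak the share was 20.1%, over all 2404 IDR peaks 22.0%, and over windows of the same length centred 150 bp upstream of the 5′ end of 19973 genes 33.8%. The windows with the letters were 7 of 11 in core genes and 8 of 12 in regulatory genes. GTCAT was in 11 windows, against 12.3% of all genes with a peak, and ATCAT in 9, against 9.80%. Windows that hold both forms count for each. More than 1 occurrence was found in 8 of 23 windows (34.8%), against 3.56%. The count of occurrences includes overlaps, since GTCATCAT, as at rpn-7, holds both forms. In the printed sequences the letters stand in pas-6, pbs-1, rpt-1, rpn-12 and rpn-7, and they are not in the windows of pas-1, rpn-2, rpn-3 and rpn-9.

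The width of the window changed the count. With 25 bp on each side the letters were in 8 of 23 windows (34.8%), against 9.19% of all genes with a peak, and with 100 bp on each side they were in 21 of 23 (91.3%), against 41.1%. Of the 25 occurrences within 50 bp, 21 (84.0%) lay on the side of the summit that faces the subunit gene, against 53.2% of 547 occurrences over all genes with a peak. The all-gene count took a shared peak once for each gene, in opposite directions where the genes diverge. That draws its share towards an even split, as 1295 of the 2275 genes had a shared peak, while each subunit peak was counted once. The centres of the 25 occurrences were a median of 27 bp from the summit, 11 of them were within 25 bp, and 17 read forward on the strand of the subunit gene. The windows had a median GC content of 42.6% (35.6% to 54.5%), against 47.5% for all genes with a peak and 33.7% for all promoter windows. Among the 1934 of 2275 genes with a peak whose window fell in the GC range of the subunit genes, 20.7% held the letters. That range takes in most windows and does not match the median GC content, so the part of GC content in these shares was not tested. A match is a run of letters and not a measured SKN-1 site, and SKN-1 binding was not analysed here.

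Windows were also placed by the 5′ end and not by the summit. Centred 150 bp upstream, 16 of all 33 subunit genes held the letters (48.5%), against 33.8% of all promoters. They were in 13 of the 23 genes with a peak and in 3 of the 10 without, namely pbs-4, pbs-6 and rpn-6.1.

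**Figure D2:**
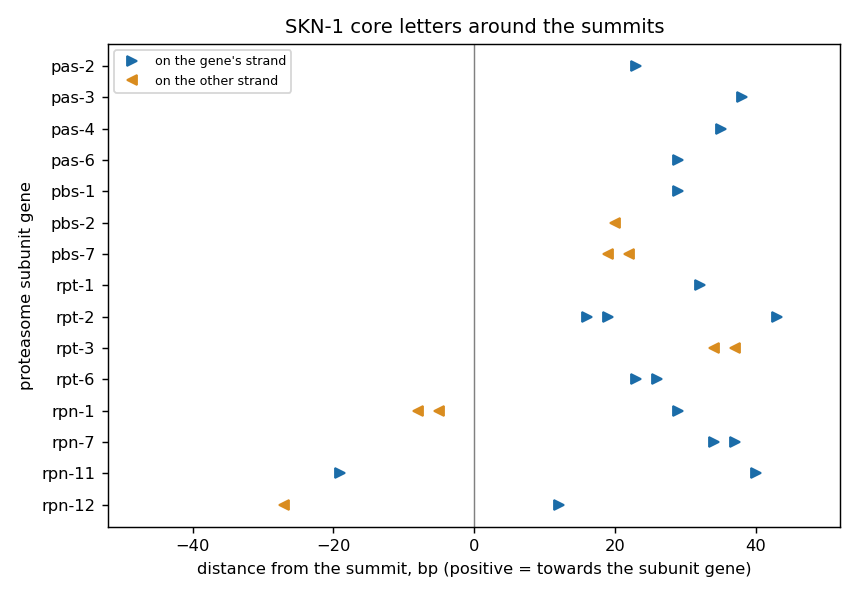
Position of each GTCAT or ATCAT occurrence relative to the summit, in bp, for the 15 subunit genes that have one within 50 bp. Triangles point along the strand of the letters, and positive distances face the subunit gene; 21 of 25 occurrences are on that side.

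Of 9 motifs searched, the other 8 were in few subunit windows. TGACNNNGC, the core of the antioxidant response element, can overlap the SKN-1 core by its first letters and was in pbs-7, rpt-2 and rpn-1 (13%), against 3.43% of all genes with a peak. An E2F-like motif, spelled TTCCCGC in its usual form, with TTGGCGC as a further accepted form, and TTCGCGC also counted, was in pas-3, pas-5, pbs-1 and rpn-2 (17.4%), against 12.5%. GACGCAGA was in pas-5 and rpn-9 (8.70%, against 7.56%), and GAGAGA in pas-5 and pas-7 (8.70%, against 21.5%). The heat shock core GAANNTTC was in the rpn-3 window only, 4.35% against 3.56%, and TTTTCAG, searched on the gene strand only, was in pas-5, 4.35% against 1.93%. The E-box CACGTG, found in 2.33% of all genes with a peak, and GGTGGCAAA, the element of yeast proteasome promoters, found in 0.0879%, were in none of the 23. The windows of pas-1, pbs-3 and rpn-5 held no searched motif.

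**Figure D3:**
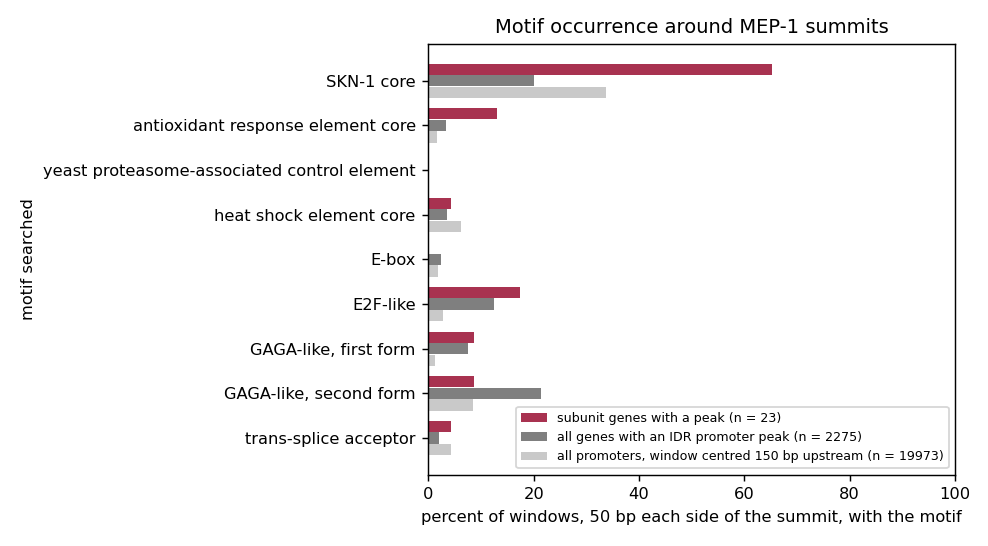
Percent of windows with 50 bp on each side of the summit that hold each motif, on an axis from 0 to 100, for the 23 subunit genes with a peak, all 2275 genes with a peak and 19973 promoter windows centred 150 bp upstream. The GAGA-like forms are GACGCAGA, then GAGAGA. The SKN-1 core has the longest subunit bar, at 65.2%.

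Every alpha ring gene had an IDR promoter peak, 7 of 7, but most of these peaks were weak, with a median signal of 40.0. The alpha subunits form the gated outer rings of the core. The pas-4 peak was the strongest of the class, with signal 19.2 and rank 403 in replicate 1, signal 88.9 and rank 181 in replicate 2, and an IDR signal of 105.3. The pas-3 peak followed at 65.2, with ranks of 844 in replicate 1 and 950 in replicate 2. Both stood well inside the 2404 strongest regions of each replicate. The pas-7 peak had an IDR signal of 48.8 and ranks of 4287 and 1172 in replicates 1 and 2, and the pas-1 peak 40.0 with ranks of 1624 and 2164. The pas-2 peak, at 37.9, ranked 1787 in replicate 1 and 2482 in replicate 2.

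The pas-5 and pas-6 peaks, the weakest of the class, were far stronger in rank, or matched only, in replicate 2. The pas-5 peak, at 34.4 and rank 2386 of 2404 the closest of all subunit genes to the IDR limit, had a signal of 29.8 in replicate 2 (rank 2216) and of 3.74 in replicate 1 (rank 10981). The pas-6 peak, at 36.5, had a signal of 33.9 in replicate 2 (rank 1779) and no summit of replicate 1 within 100 bp. It was the only one of the 23 without a match in replicate 1.

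Of the beta ring genes, 4 of 7 had an IDR promoter peak, with a median signal of 72.1. The pbs-7 peak had signal 9.71 in replicate 1 and 76.1 in replicate 2, with an IDR signal of 86.1. The pbs-3 peak had 8.21 and 70.9, with an IDR signal of 82.6. At pbs-2, which encodes the subunit with trypsin-like activity, the peak had 15.2 and 47.2, with an IDR signal of 61.5. Their ranks were 1675, 2353 and 752 in replicate 1 and 291, 353 and 989 in replicate 2. The pbs-1 peak, at the gene for the caspase-like subunit, had an IDR signal of 55.5, and ranked 822 in replicate 2 (signal 51.9) and 7690 in replicate 1 (signal 4.55).

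The other 3 beta ring genes had no IDR promoter peak. The promoter of pbs-5, the gene of the chymotrypsin-like subunit, held no region of any list, and the closest IDR summit lay at -1140 bp with signal 69.3, inside K05C4.2. The promoter of pbs-4 held a candidate of pooled signal 21.4 (rank 4444), and the same region ranked 2838 in replicate 2. The strongest replicate 1 region of that promoter was another, at -718 bp with rank 9509. The best pbs-6 candidate had pooled signal 15.4 (rank 7466), and an IDR summit lay 1105 bp downstream of its 5′ end, past its 3′ end and inside C02F5.12.

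In the base, 6 of 10 genes had an IDR promoter peak, with a median signal of 45.9. The rpt genes encode the ring of AAA ATPases. The rpt-2 peak had signal 16.9 in replicate 1 (rank 570) and 64.6 in replicate 2 (rank 472), with an IDR signal of 84.7. The rpt-1 peak had 7.58 (rank 2751) and 60.2 (rank 556), with an IDR signal of 65.9. The rpt-3 peak went the other way in rank, with 15.2 in replicate 1 (rank 745) and 30.0 in replicate 2 (rank 2185), and an IDR signal of 47.0. The rpt-6 peak, at 41.8, ranked 2935 and 1775. The large scaffold subunits rpn-2, at 44.9, and rpn-1, at 38.0, ranked 4378 and 2132 in replicate 1 and 1832 and 2219 in replicate 2.

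The 4 base genes without an IDR promoter peak each had a pooled candidate in the promoter. That of rpn-13, a ubiquitin receptor, came closest to the IDR set, at signal 26.8 and rank 3288. It ranked 496 in replicate 1 (signal 18.0). The strongest replicate 2 region of that promoter was another, at 163 bp past the 5′ end with rank 8808 (signal 11.9). The candidates of rpt-5, rpn-10 and rpt-4 had pooled signals of 17.8 (rank 5842), 7.13 (rank 26836) and 6.85 (rank 28340). At rpt-4 an IDR peak of signal 63.5 lay inside the gene, 2389 bp downstream of its 5′ end, and in the promoter of nfyc-1. At rpn-10, another ubiquitin receptor, an IDR peak of 45.1 lay at -1387 bp. For rpt-5 the closest IDR summit was 36569 bp away.

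The lid had the highest median signal of the 4 classes. Of its 9 genes, 6 had an IDR promoter peak, with signals from 53.0 to 210.5 and a median of 90.7, and all 6 had a region among the 2404 strongest of both replicates. The rpn-3 peak, on chromosome III from 8447060 to 8447278, had signal 54.8 in replicate 1 (rank 7) and 154.7 in replicate 2 (rank 27), and its pooled rank was 19. The rpn-9 peak, on chromosome II from 11239122 to 11239254, had 26.2 (rank 176) and 77.2 (rank 278), with an IDR signal of 106.2. These were the only narrow peaks among the 23, at 219 bp for rpn-3 and 133 bp for rpn-9, where the usual width is 336 bp. In the whole IDR set, 221 of 2404 peaks were narrower than the usual width. Like rpn-3 and rpn-9, rpn-12, rpn-7 and rpn-5 encode scaffolding subunits of the lid. The rpn-12 peak had 15.5 (rank 704) and 81.7 (rank 235), with an IDR signal of 98.1, and the rpn-7 peak 10.6 (rank 1442) and 69.8 (rank 371), with 83.2. The peaks of rpn-5, at 55.2, and of rpn-11, the deubiquitinating enzyme, at 53.0, ranked better in replicate 1, at 487 and 1055, than in replicate 2, at 1360 and 1295.

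The other 3 lid genes had no IDR promoter peak. The rpn-8 promoter, whose product pairs with RPN-11, held a candidate of pooled signal 17.3 (rank 6093) and no region of replicate 1. The rpn-6.1 promoter, whose gene is tied to longevity in worms that lack a germline, held a candidate of 12.1 (rank 11358), again with none in replicate 1, while an IDR peak of 50.1 lay 634 bp downstream of the 5′ end, inside the gene and in the promoter of F57B9.1. The promoter of rpn-6.2, the near namesake of rpn-6.1, held no region of any list, and the closest IDR summit was 16820 bp away. With the 5′ end of any annotated transcript in place of that of the gene, rpn-6.1 and rpt-4 had an IDR promoter peak, which brought the count to 25 of 33, against 12% of all genes.

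Over all classes, 22 of the 23 peaks had a replicate 1 summit within 100 bp, against 84.5% of all IDR peaks, and 23 of 23 had a replicate 2 summit, against 98.5%. Matched ranks ran from 7 to 10981 in replicate 1, with a median of 1533, and from 27 to 2482 in replicate 2, with a median of 989. The rank was better in replicate 2 for 12 of the 22 genes matched in both. Of the 10 genes without an IDR promoter peak, 8 had a region of replicate 2 in the promoter and 4 one of replicate 1. Per the labels, the lists of replicate 1 and of the pooled reads were made with a control alignment, none is named for that of replicate 2, and the part of this in the rank differences was not tested.

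**Figure D4:**
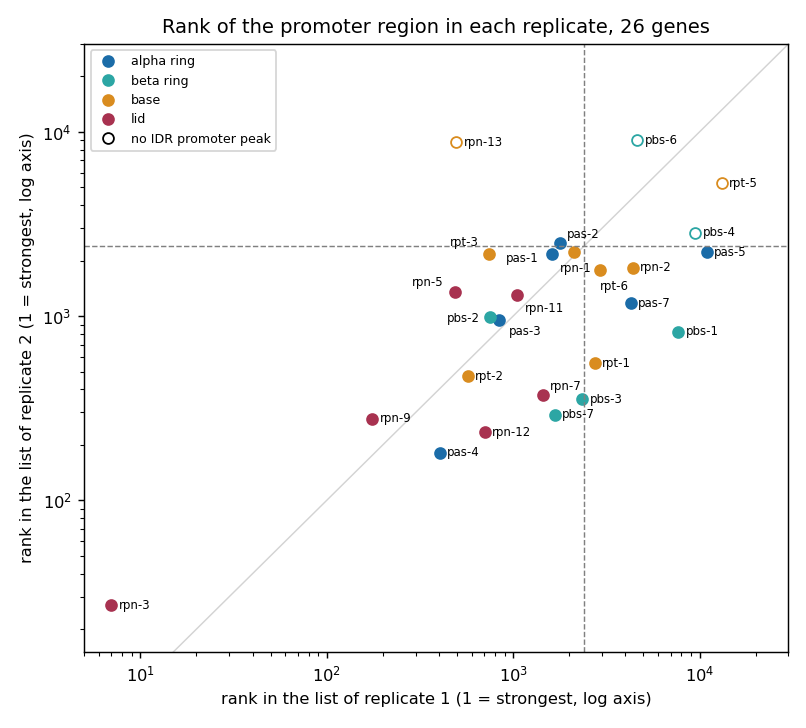
Rank of the promoter region in replicate 1 against replicate 2 (log axes, 1 the strongest) for 26 subunit genes with a region in both: the matched IDR peak for 22 and the strongest promoter region for 4 without an IDR peak (open), whose summits lie over 100 bp apart in the replicates. Dashed lines mark rank 2404, and the rpn-3 peak, at ranks 7 and 27, stands apart at the strong end.

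The share of genes with a peak was 11 of 14 in the core particle (78.6%) and 12 of 19 in the regulatory particle (63.2%). This order held in most other settings, such as a wider promoter, with 12 of 14 core and 13 of 19 regulatory genes, and turned in some. With the 2404 strongest regions of replicate 1 alone, 7 of 14 core and 10 of 19 regulatory genes had a promoter region. When each peak was given only to the gene with the nearest 5′ end, 7 of 14 core and 11 of 19 regulatory genes had one. Median signal was 55.5 in the core (34.4 to 105.3) and 60.6 in the regulatory particle (38.0 to 210.5), and the regulatory range exceeded the core range at its upper end through rpn-3 and rpn-9.

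The subunit genes with an IDR promoter peak were spread over the autosomes. They were 5 of 10 on chromosome I, 6 of 7 on chromosome II, 4 of 8 on chromosome III, 3 of 3 on chromosome IV and 5 of 5 on chromosome V, with no subunit gene on the X chromosome. Over all genes the shares were 16.8%, 10.9%, 17.4%, 10.2% and 7.03% in the same order.

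Many of the peaks lay between divergent genes. The summit was also in the promoter of another gene at 17 of 23 subunit genes (73.9%), against 56.9% of all genes with an IDR promoter peak. The all-gene share takes in the X chromosome, which has no subunit gene and where it was 24.3%. On the single autosomes it ran from 58.1% to 64.8%, so part of the contrast comes from the X chromosome. In the core these were 9 of 11 and in the regulatory particle 8 of 12. Each of the 17 peaks was shared by exactly 2 promoters, 16 of them on opposite strands, with 5′ ends from 151 to 790 bp apart and a median of 430 bp. The summit lay between the pair of 5′ ends in 15 of these 16. The exception was pas-2, whose summit was 17 bp inside D1054.1. The only pair on the same strand was pas-1 with rpoa-12, a subunit gene of RNA polymerase I, whose 5′ end lies between the summit and pas-1.

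The partner genes were of many kinds, and their functions were not scored. The rpn-3 peak was shared with hsp-110, a chaperone gene, and the rpn-12 peak with rad-23, whose product carries ubiquitin-tagged proteins to the proteasome. The pas-4 peak was shared with rpb-3, a subunit gene of RNA polymerase II, pbs-2 with eif-6, a gene of ribosome assembly, and rpn-5 with the cohesin gene scc-1. Others were use-1 (pas-3), puf-12 (pas-7), aps-1 (rpt-2) and ribo-1 (rpn-1). Genes known by sequence name were D1054.1 (pas-2), CD4.11 (pas-6), K08D12.3 (pbs-1), F39H11.1 (pbs-7), C23G10.7 (rpn-2), F49C12.9 (rpn-7) and T06D8.9 (rpn-9). The unshared peaks were those of pas-5, pbs-3, rpt-1, rpt-3, rpt-6 and rpn-11.

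For 12 of the 17 shared peaks the subunit gene had the nearer 5′ end, and for 5 the partner did, namely at pas-1, pas-2, pas-3, pas-7 and rpn-7. Counted for the nearest 5′ end only, 18 of 33 subunit genes had a peak, against 8.1% of all genes. Shared peaks had a median signal of 61.5 (36.5 to 210.5) and unshared ones of 50.02 (34.4 to 82.6), against 61.1 and 53.4 for all genes. In the regulatory particle the medians were 84.0 for 8 shared peaks and 50.02 for 4 unshared ones. In the core they were 55.5 for 9 shared peaks and 58.5 for only 2 unshared ones. Those 2, pas-5 at 34.4 and pbs-3 at 82.6, lay on either side of the shared median, so the core gives no clear order. From a peak list alone, which of the paired genes a peak belongs to cannot be told apart.

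All 23 summits lay upstream of the 5′ end, as did 2170 of 2275 over all genes with a peak, at a median of -197 bp against -225 bp. They ran from -11 bp at rpn-11 and -36 bp at rpn-5 to -688 bp at rpt-3 and -807 bp at pas-1. Within 300 bp lay 16 of the 23, against 1349 of 2275 over all genes with a peak. The pas-1 summit was the closest inside the outer limit of the promoter, and that of pbs-5, at -1140 bp, the closest outside it. In annotation, 16 summits were intergenic and 7 lay in a noncoding exon or an untranslated region: in D1054.1 at pas-2, ulp-2 at pbs-3, chtb-2 at rpt-3, and noncoding RNA genes at pas-4, pas-7, rpt-2 and rpn-1. The annotation under the summits was not counted over all genes.

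**Figure D5:**
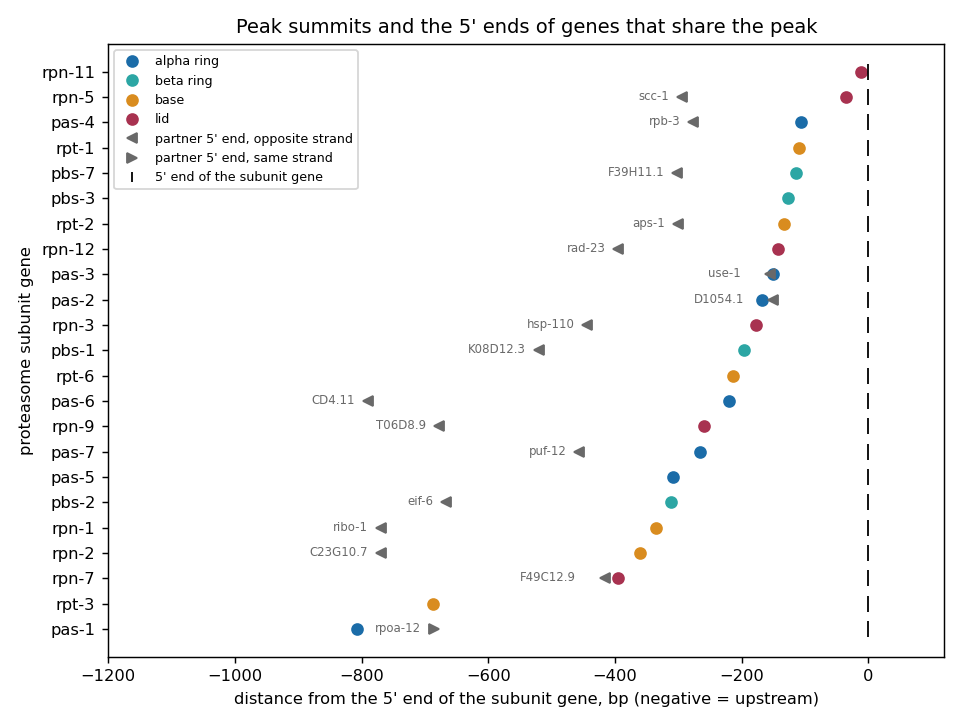
Distance of each IDR summit (coloured points) and of the 5′ end of the gene sharing the peak (grey triangles, with its name) from the 5′ end of the subunit gene, in bp, negative being upstream. Summits run from -807 bp at pas-1 to -11 bp at rpn-11.

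Worm genes are often transcribed together in operons, where downstream genes may lack a promoter of their own. An operon-like position, with a gene on the same strand ending within 500 bp upstream, was found for 8 of 33 subunit genes (24.2%), against 18.1% of all genes. Of these 8, 4 had an IDR promoter peak, against 7.51% of all operon-like genes, and of the other 25 subunit genes 19 had one (76.0%), against 12.2%. Those with a peak were pas-1 (106 bp behind rpoa-12), pbs-3 (22 bp behind ulp-2), rpt-3 (478 bp behind chtb-2) and rpn-11 (224 bp behind K07D4.2). Those without were pbs-5 (behind K05C4.2), rpn-6.2 (behind F59B2.15), rpn-10 (behind mrpl-9) and rpn-13 (behind C56G2.9). Only in the chain of rpn-10 did the first gene have an IDR promoter peak, of signal 45.1. The chain of pas-1 starts at rrsr-1, which had none, but its next gene, rpoa-12, shared the pas-1 peak, at -121 bp from the rpoa-12 5′ end.

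Genes that work with the proteasome were taken from a list of 21, mostly for ubiquitin, substrate delivery and SKN-1A processing. The list also held dss-1, psmd-9 and psme-3, which the symbol rule did not take as subunit genes and which had no IDR promoter peak. An IDR promoter peak was found at 7 of the 21 genes (33.3%), against 11.4% of all genes, and a pooled candidate at 16, against 39.1%. The cdc-48.1 gene, for the ATPase that extracts and unfolds ubiquitin-tagged proteins, had the strongest peak of the IDR set, with signal 33.6 in replicate 1 (rank 64), 320.3 in replicate 2 (rank 1) and 357.3 in the IDR set. After it came rad-23 at 98.1, at the peak shared with rpn-12, then ubql-1, for another shuttle factor, at 85.8 and aip-1, for a proteasome-associated stress protein, at 67.4. The deubiquitinase gene ubh-4 had 58.1, the ubiquitin gene ubq-2 39.4 and the CDC-48 cofactor gene ufd-1 36.3. There was no IDR promoter peak at skn-1, nor at png-1 and ddi-1, which encode enzymes that process SKN-1A. The skn-1 promoter held only a replicate 1 region of signal 2.65 (rank 18464), and png-1 and ddi-1 held pooled candidates of 7.74 (rank 23914) and 8.14 (rank 22163).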

How the data were processed

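Candidate regions and an IDR set on ce11 (WBcel235) were used as the authors deposited them, with their signal, −log10 q-value and summit offset. All IDR peaks share the same −log10 q-value in the deposited list, so peaks were ranked by signal, within a list only. The sources used here do not give the aligner, the caller or the threshold of the IDR step, and read depth is unknown. The ce10 lists were not used.

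Genes were those of Ensembl release 115; all 33 members matched RefSeq by symbol, and 26 had equal coordinates. Counts and medians were computed with Python 3.11.15, pandas 2.3.3 and numpy 2.4.6, with no test across genes, and peak assignment was tested on simulated data. A peak shared by several promoters counts for each gene. All members are named, with partner genes that have a peak and skn-1, png-1, ddi-1, dss-1, psmd-9 and psme-3. Members, lists and motifs were chosen with earlier results of these data known. Window widths, GC restriction and side of the summit were chosen after seeing the data. The sequences were to be the strongest peaks of each class, leaving out chromosome I, where pas-3, pas-4, pbs-2 and pbs-7 lie. The peaks of pas-2, pas-7, pbs-3, rpt-2 and rpt-3 were passed over because their summits lie in annotated exons. Those of rpn-12 and rpn-7 were added after their values were seen. Alternatives covered promoter width, transcript ends, peak strength, each replicate left out and overlap rules.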

Additional observations from a re-analysis of the deposited data

How the results depend on the processing

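The count of 23 subunit genes with an IDR promoter peak was 21 with a narrower promoter, 25 with a wider one, 25 with the ends of any transcript, 24 with any overlap in place of the summit and 22 with only peaks matched in replicate 1. Leaving out a replicate gave 17 to 22 genes, with 7 to 10 in the core, 10 to 12 in the regulatory particle and 13 to 16 at shared peaks. The lower counts are without replicate 2, which gained rpn-13 and lost pas-5, pas-6, pas-7, pbs-1, rpn-2, rpt-1 and rpt-6. With the 1202 strongest IDR peaks the counts were 14 in all, 6 in the core, 8 in the regulatory particle and 11 at shared peaks, and the median signal was 82.9, as the smaller and stronger set implies. With the nearest 5′ end only, the core count was 7. The SKN-1 core letters were in 8 windows with 25 bp on each side, where less sequence is searched. With 100 bp they were in 21. Median signal was not computed for single replicates, whose scales differ. No paired analysis was possible because there is only 1 group and no test. Depth is unknown, so whether promoters without a region were too weakly covered was not tested.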
